A study of Equus caballus with 22 samples.

Results

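The genes described here are GAST, SV2A and HTR1B, 3 of the 675 horse genes that could be named on an endometrial microarray of 43603 probes. Each was represented by 1 probe, chosen because the probe's annotation carries a RefSeq transcript of the gene: A_69_P001181 for GAST, A_69_P120916 for SV2A and A_69_P000006 for HTR1B. The genes were selected on their day 12 minus day 8 change in non-pregnant samples, where all 3 were lower at day 12, so that contrast is given as a description only. The 3 probes were well above background on all 22 arrays, and none of their spots was saturated.

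Gastrin, the product of GAST, is a peptide hormone best known from the endocrine cells of the stomach, where it drives acid secretion through the cholecystokinin B receptor. SV2A encodes a membrane glycoprotein of synaptic vesicles and of the secretory granules of endocrine cells, and takes part in regulated exocytosis. HTR1B encodes a serotonin receptor that couples to inhibitory G proteins and, on nerve endings, restrains transmitter release. The endometrium, the lining of the uterus, consists of luminal and glandular epithelium over a stroma with vessels, nerves and immune cells, and its glands secrete the fluid that nourishes the early equine conceptus while it still moves freely in the uterus.

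Biopsies came from warmblood mares, and the study set pregnant endometrium, sampled once the embryo had been flushed out, against the matching non-pregnant stage of the same mare. The 4 groups were day 12 pregnant and day 12 non-pregnant with 6 mares each (mares 1 to 6), and day 8 pregnant and day 8 non-pregnant with 5 mares each (mares 1, 2, 4, 5 and 6). No treatment or genotype is given for any group, and the labels do not say whether a mare number means the same animal at both days. Levels are log2 spot intensities above or below the array's own 75th percentile, so a level of 0 equals that percentile and a difference of 1 is a doubling. Levels of different probes are not compared with each other, since probes differ in brightness. In bulk tissue such as this, fewer cells of a type and less RNA per cell cannot be told apart.

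From 74.2% to 92.9% of the spots of an array were well above background, and the 75th percentile of intensity lay between 577 and 1863 units. Both samples of a mare shared a slide, but day 12 (4 slides, 3 scan days) and day 8 (3 slides, 2 scan days) shared none, and the 2 days were read with different versions of the image software. Day and slide, scan day or software version therefore cannot be told apart in any comparison of days. The number of arrays limits the precision of every value. Epithelium was represented by 1 of its 9 listed markers, ESRP1, an epithelial splicing regulator, which lay between 2.47 and 3.16 over the 4 groups. At day 12, mare 3 stood apart in its pregnant minus non-pregnant differences over the probes well above background on all 22 arrays. They had a correlation of -0.15 with the average of its 5 companions, while those 5 gave 0.10 to 0.60. Results are also given without mare 3.

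GAST was lower at day 12 than at day 8 in pregnant endometrium, by 7.44-fold. In the 5 pregnant mares of day 8 its levels were 6.44, 5.14, 5.21, 5.21 and 5.10 (mares 1, 2, 4, 5 and 6). At day 12 the pregnant levels ran from 1.16 to 3.93 with a median of 2.19 (6 mares). Every day 8 sample lay above every day 12 sample, with a gap between 3.93 and 5.10. On this scale mare 1 was the highest of the day 8 samples, and the other 4 lay close together. In unscaled intensity the pregnant samples likewise did not overlap, with 35784 to 55071 units at day 8 and 1665 to 21493 at day 12.

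Group means were 5.42 ± 0.57 (SD, n = 5) at day 8 and 2.53 ± 1.12 (n = 6) at day 12. The difference was -2.90 ± 0.50 log2 (SE), with a 95% interval of -3.98 to -1.81 and an adjusted p of 0.00291 in limma over 38450 probes. The interval corresponds to 3.51-fold to 15.8-fold lower. An exact two-sided permutation test of the 11 pregnant levels gave p = 0.004329, the smallest value that the 462 possible regroupings allow. Among the 607 named genes tested, this was the lowest change in pregnant samples. Among all 38450 probes tested it was the 90th lowest.

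SV2A showed a difference of about the same size in pregnant samples, 7.40-fold lower at day 12. Its day 8 pregnant levels were 6.08, 5.24, 5.22, 4.80 and 5.11 in mares 1, 2, 4, 5 and 6, and its day 12 pregnant levels ran from 1.53 to 3.13 with a median of 2.53. The days did not overlap, on this scale or in unscaled intensity (30299 to 54390 units at day 8, 4029 to 9365 at day 12). Means were 5.29 ± 0.47 (SD, n = 5) at day 8 and 2.40 ± 0.69 (n = 6) at day 12, a change of -2.89 ± 0.33 (SE, 95% interval -3.62 to -2.16, limma adjusted p = 0.00054). The exact permutation p was again the smallest possible, 0.004329. SV2A was 2nd lowest of the 607 named genes and 94th lowest of all 38450 probes tested.

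HTR1B was 3.06-fold lower at day 12 in pregnant samples. Its pregnant levels at day 8 were -0.63, -2.51, -2.11, -2.16 and -2.18 in mares 1, 2, 4, 5 and 6, and at day 12 they ran from -3.89 to -3.03 with a median of -3.58. The groups did not overlap, but the gap between them was small and mare 1 stood well above the other day 8 mares. The probe was dim, with pregnant intensities of 228 to 409 units at day 8 and 52.6 to 167 at day 12.

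Means for HTR1B were -1.92 ± 0.74 (SD, n = 5) and -3.53 ± 0.38 (n = 6), a change of -1.62 ± 0.32 (SE, 95% interval -2.31 to -0.93, limma adjusted p = 0.00524). The exact permutation p was 0.004329. The gene ranked 11th lowest of the 607 named genes and 608th lowest of all 38450 probes tested. Under normexp, another background correction, the change was -0.70 with an adjusted p of 0.554 in limma, so the call was lost. That correction placed the pregnant day 12 array of mare 1 at -0.20 for HTR1B, while the other 5 pregnant day 12 arrays stayed at -3.40 to -2.66. The shift was not particular to HTR1B. Under normexp the median of the tested probes was -0.17 on that array, against -2.16 to -1.77 on every other array. GAST and SV2A on it were 0.77 and 0.39 under normexp, against 1.87 and 1.66 in the main analysis. Without mare 1 at day 12, normexp gave -1.16 (limma adjusted p = 0.0150).

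All 3 genes were thus called lower in pregnant samples. Of all 38450 probes tested in that comparison, 24.3% were called in either direction and 13.1% were called lower at day 12, while the median change over all probes was -0.03. Of the 607 named genes, 50 were called higher and 122 lower. The genes were selected on the non-pregnant arrays, but with earlier results of the whole data set known, and the pregnant arrays come from the same mares and slides. The tests in pregnant samples, and the ranks beside them, are therefore not independent of that choice. How many of all probes had days without overlap was not counted. The lack of overlap, here and below, and the smallest permutation p that goes with it are therefore given as a description.

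**Figure D1:**
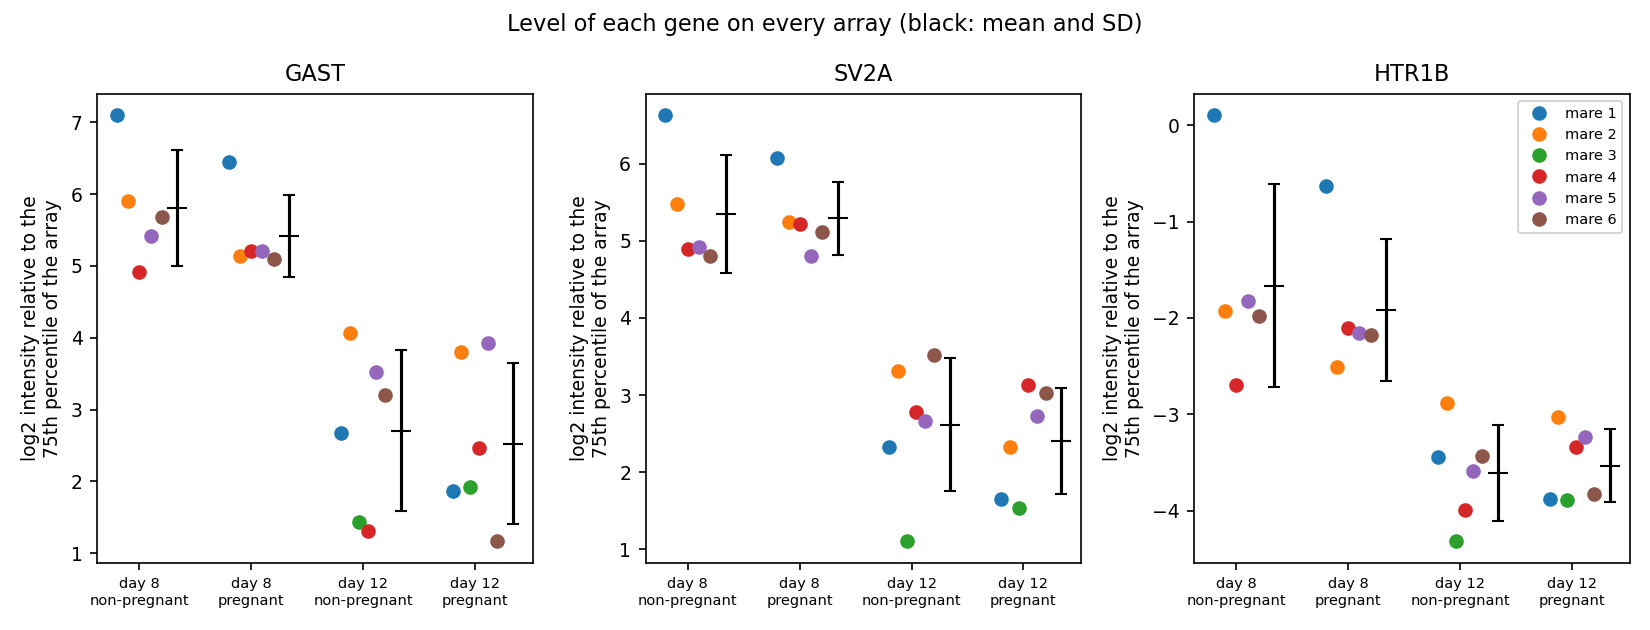
Level of GAST, SV2A and HTR1B on each of the 22 arrays (vertical axis, log2 intensity relative to the array's 75th percentile, a separate scale for each gene), by day and pregnancy. Points are single samples coloured by mare number within a day, and the black bars give the mean and SD of a group. In each panel every day 8 point lies above every day 12 point, and mare 1 is the highest point of both day 8 groups.

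In non-pregnant samples, whose values chose the genes, GAST levels were 7.11, 5.91, 4.92, 5.42 and 5.69 at day 8 (mares 1, 2, 4, 5 and 6). At day 12 they ran from 1.31 to 4.07 with a median of 2.94. Group means were 5.81 ± 0.81 (SD, n = 5) and 2.71 ± 1.13 (n = 6), a difference of -3.10 ± 0.54 (SE). The lowest day 8 value and the highest day 12 value were thus less than 1 log2 unit apart.

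For SV2A the non-pregnant levels at day 8 were 6.63, 5.48, 4.89, 4.92 and 4.80, and at day 12 they ran from 1.1 to 3.52 with a median of 2.72. Means were 5.35 ± 0.77 (SD, n = 5) and 2.62 ± 0.86 (n = 6), a difference of -2.73 ± 0.45 (SE). Here too the days were separate, by a wider margin than for GAST.

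For HTR1B the non-pregnant levels at day 8 were 0.11, -1.93, -2.70, -1.82 and -1.98, and at day 12 they ran from -4.32 to -2.88 with a median of -3.51. Means were -1.66 ± 1.05 (SD, n = 5) and -3.61 ± 0.50 (n = 6), a difference of -1.94 ± 0.43 (SE). The 2 days came closest to each other for this gene, at -2.70 and -2.88. In this contrast 4.62% of all probes were called lower at day 12, from which nothing is read about the 3 genes, since it is the contrast that chose them.

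**Figure D2:**
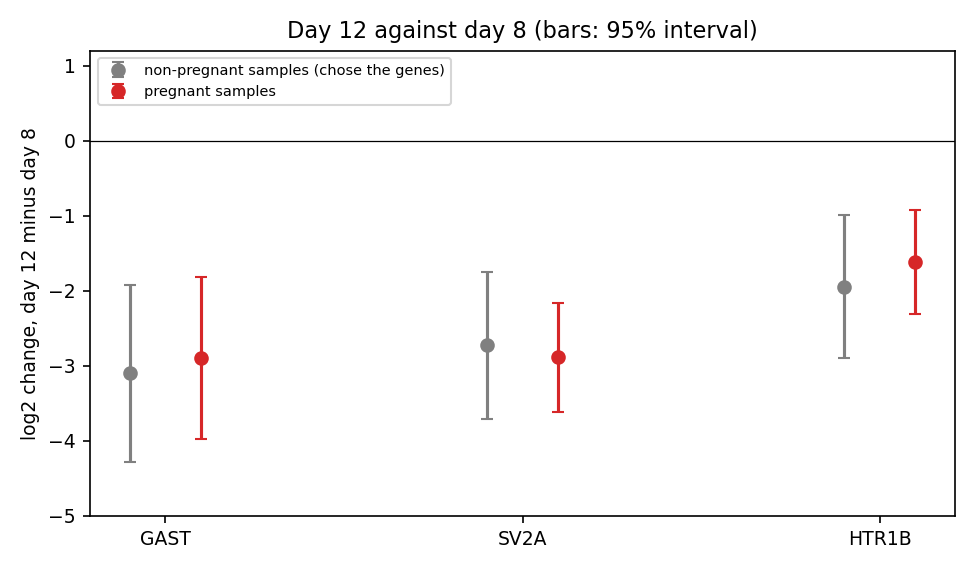
Day 12 minus day 8 change of each gene (vertical axis, log2) in non-pregnant samples (grey, the contrast that chose the genes) and pregnant samples (red), with 95% intervals from limma. The pregnant estimates are -2.90 for GAST, -2.89 for SV2A and -1.62 for HTR1B, and each interval lies below 0.

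The order of the 4 groups by mean was the same for GAST and SV2A: day 8 non-pregnant, day 8 pregnant, day 12 non-pregnant and day 12 pregnant, from high to low. For HTR1B the 2 day 12 groups changed places. Within a day the neighbouring groups in that order differed by less than their SD for every gene, whereas the step from day 8 to day 12 was larger than the SD of either group. No slide held both days, so means per slide only restate the difference between the days. For GAST the means of pregnant samples per slide were 5.16 to 5.79 on the 3 day 8 slides and 1.81 to 3.93 on the 4 day 12 slides.

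Within a day, some levels also differed between scan days. On day 12, the 4 arrays of 1 scan day (mares 2 and 5) had GAST levels of 3.53 to 4.07, above the other 8 arrays at 1.16 to 3.21. SV2A at day 12 was 1.1 to 2.33 on the arrays of mares 1 and 3, below the 2.77 to 3.52 of mares 4 and 6, which were scanned on another day. On day 8 the 4 arrays of mares 1 and 2 gave 5.24 to 6.63 for SV2A, and the 6 arrays of the other scan day 4.80 to 5.22. The scan days overlapped for GAST at day 8, at 5.14 to 7.11 and 4.92 to 5.69, and for HTR1B at both days. Scan day and mare cannot be told apart here, since each mare was scanned on 1 day within a time point. With scan day as a random block, the pregnant day changes were -2.93, -2.92 and -1.65 for GAST, SV2A and HTR1B (limma adjusted p = 0.0132, 0.00252 and 0.0338).

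No pregnancy difference passed the test for any of the 3 genes at day 12. In this paired comparison each mare's pregnant sample is set against its own non-pregnant sample, and the non-pregnant arrays are among those that chose the genes. GAST was lower with pregnancy in mares 1, 2 and 6 and higher in mares 3, 4 and 5, and its differences ran from -2.05 to 1.15 with a median of 0.07. The mean difference was -0.18 ± 0.33 (SE, 95% interval -0.90 to 0.54, limma adjusted p = 0.860), an interval that includes changes of up to 1.87-fold lower. Its sign rested on mare 6: without that mare at day 12 the difference was 0.19.

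For SV2A the differences between the pregnant and non-pregnant sample at day 12 ran from -0.98 to 0.43 with a median of -0.21, and their mean was -0.21 ± 0.19 (SE, 95% interval -0.63 to 0.20, limma adjusted p = 0.689). For HTR1B they ran from -0.44 to 0.66 with a median of 0.10, and their mean was 0.08 ± 0.18 (95% interval -0.33 to 0.48, limma adjusted p = 0.900). Each of these genes was lower in 3 and higher in 3 of the 6 mares. Without mare 4 the HTR1B difference was -0.04, under normexp it was 0.60 (limma adjusted p = 0.339) and under normexp without mare 1 at day 12 it was 0.15, and without mare 3 the differences were -0.31 for GAST, -0.34 for SV2A and 0.01 for HTR1B, none of them called. Of all 38452 probes, 0.265% were called in this comparison.

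At day 8 the pregnancy differences of GAST were -0.66, -0.76, 0.29, -0.21 and -0.59 in mares 1, 2, 4, 5 and 6. It was lower with pregnancy in 4 of 5 mares, with a mean of -0.39 ± 0.36 (SE, 95% interval -1.17 to 0.40, limma adjusted p = 0.916). The differences of HTR1B were -0.74, -0.58, 0.59, -0.34 and -0.19, again lower in the same 4 mares, with a mean of -0.25 ± 0.20 (95% interval -0.70 to 0.19, limma adjusted p = 0.895). Without mare 4 the HTR1B mean was -0.46 (95% interval -0.88 to -0.05), though not called over all probes (limma adjusted p = 0.686), and without mare 1 it was -0.13. Those of SV2A were -0.56, -0.24, 0.32, -0.12 and 0.31, with a mean of -0.06 ± 0.21 (95% interval -0.51 to 0.40, limma adjusted p = 0.988), and without mare 1 the mean was 0.07. In this comparison limma called 0 of 38448 probes (0%), with 2243 at an unadjusted p under 0.05, so it called neither these genes nor any other.

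The sign of the pregnancy difference was shared by GAST, SV2A and HTR1B in 10 of the 11 pairs of samples from a mare and day. At day 12 all 3 were lower with pregnancy in mares 1, 2 and 6 and higher in mares 3, 4 and 5. At day 8 all were lower in mares 1, 2 and 5 and higher in mare 4, and mare 6 alone had SV2A higher with GAST and HTR1B lower. The 3 values of a mare come from the same pair of arrays and the same scaling, so this is given as a description.

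**Figure D3:**
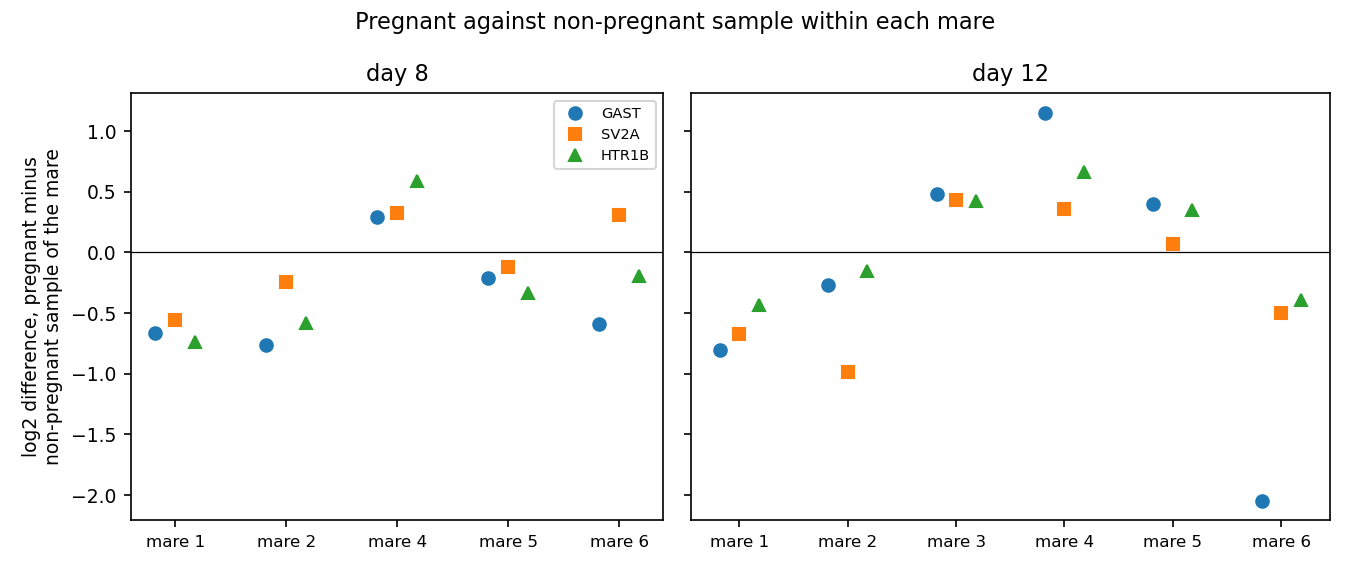
Pregnant minus non-pregnant level within each mare (vertical axis, log2) for GAST (circles), SV2A (squares) and HTR1B (triangles) at day 8 and day 12. Points of both signs occur at each day, and the 3 symbols of a pair lie on the same side of 0 in 10 of 11 pairs.

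The day change of pregnant samples was also set against that of non-pregnant samples, which is the same as comparing the pregnancy differences of the 2 days. The difference was 0.21 ± 0.49 (SE) for GAST, with a 95% interval of -0.86 to 1.27 and a limma adjusted p of 0.907. It was -0.16 ± 0.28 for SV2A (95% interval -0.78 to 0.46, limma adjusted p = 0.866) and 0.33 ± 0.27 for HTR1B (95% interval -0.27 to 0.93, limma adjusted p = 0.690). None was called, where 0.0104% of all probes were. The GAST value was -0.06 without mare 4 at day 12. The HTR1B value was 0.82 under normexp (limma adjusted p = 0.577), 0.37 under normexp without mare 1 at day 12, and 0.54 without mare 4 at day 8 (limma adjusted p = 0.528). The widest of these intervals, that of GAST, reaches a difference of 1.27 log2 between pregnant and non-pregnant endometrium.

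Other genes of peptide, granule, amine and serotonin signalling were sparse among the named probes. Of 158 genes on 6 lists, 19 were on the array by symbol and 15 could be tested, 12 of them other than GAST, SV2A and HTR1B. In pregnant samples 2 of these 12 were called higher at day 12 and 1 lower, with a median change of 0.11. Over all probes 24.3% were called and the median was -0.03, so the share of the 12 that was called lay near the background. CALCB, GNRHR, HTR2A and DBH were on the array but too dim to be tested.

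Among peptide hormones, 3 of 34 listed genes were tested, and GAST was the one called. NPPA, the gene of atrial natriuretic peptide, differed by -1.67 ± 0.65 (SE, limma adjusted p = 0.0788), but by 0.46 under normexp and by -0.19 under normexp without mare 1 at day 12. Its probe exceeded background on 1 of 6 pregnant arrays at day 12 and on 4 of 5 at day 8. CALCA, which encodes calcitonin and a related peptide, gave -0.49 ± 0.33 (limma adjusted p = 0.291), 0.61 under normexp and -0.02 under normexp without mare 1. No receptor for gastrin was among the named probes. Of the 2 peptide receptors tested, both for endothelin, EDNRB gave -0.39 ± 0.29 (limma adjusted p = 0.343) and EDNRA was called higher at day 12, by 0.74 ± 0.20 (limma adjusted p = 0.0214). The EDNRA call was lost under quantile normalisation, under normexp, with scan day as a random block (limma adjusted p = 0.109) and in the authors' deposited table, and its change was 0.23 in that table and 0.22 under normexp without mare 1 at day 12.

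CHGA, the gene of the granule protein chromogranin A, went the opposite way to GAST and SV2A in pregnant samples. Its pregnant levels were -6.77 to -5.91 at day 8 and -3.11 to 0.32 at day 12, a change of 5.02 ± 0.59 (SE, limma adjusted p = 0.00057), or 32.4-fold higher. The size depended on the processing: it was 3.05 under normexp, 2.88 under normexp without mare 1 at day 12, and 3.64 in values from the authors' deposited table, each still called. In non-pregnant samples the ranges of the 2 days overlapped, with -6.00 to -4.30 at day 8 and -7.02 to 0.07 at day 12, and the change of 0.93 ± 1.04 was not called (limma adjusted p = 0.605). The difference between these 2 day changes, 4.09 ± 0.72, was itself not called over all probes (limma adjusted p = 0.146). In the paired comparison at day 12, CHGA was called higher with pregnancy, by 2.79 ± 0.48 (limma adjusted p = 0.0449, near the threshold). Of all probes, 0.265% were called there. At day 8 its pregnancy difference was -1.30 ± 0.53 and not called (limma adjusted p = 0.832). PAM, which amidates peptide hormones including gastrin, gave 0.08 ± 0.19 in pregnant samples (limma adjusted p = 0.789, -0.05 under normexp). SV2A was the only one of 28 listed vesicle and exocytosis genes with a named probe, so its relatives could not be set beside it.

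Of the 23 listed genes for serotonin receptors, synthesis and clearance, 6 were tested. Besides HTR1B, 1 of the 5 others was called, MAOA, which was lower at day 12, as were 13.1% of all probes. MAOA, the monoamine oxidase that degrades serotonin, changed by -0.96 ± 0.23 (SE, limma adjusted p = 0.0122), from 1.53 to 2.45 in pregnant day 8 samples to 0.45 to 1.45 at day 12, so the days did not overlap. HTR1A, another inhibitory serotonin receptor, gave 0.14 ± 0.17 (limma adjusted p = 0.579), SLC6A4, the serotonin transporter, 0.33 ± 0.33 (limma adjusted p = 0.494), and TPH2, which carries out the first step of serotonin synthesis in neurons, -0.04 ± 0.47 (limma adjusted p = 0.957, with a positive sign under normexp and quantile normalisation). MAOB gave 0.45 ± 0.30 (limma adjusted p = 0.297).

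HRH1, a histamine receptor, gave 0.46 ± 0.21 (SE, limma adjusted p = 0.122) and was called under quantile normalisation (0.44, limma adjusted p = 0.0442). MAOA kept its direction but missed the threshold under normexp with all arrays, with scan day as a random block and in the authors' deposited table. Under normexp without mare 1 at day 12 MAOA was called (limma adjusted p = 0.0129).

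**Figure D4:**
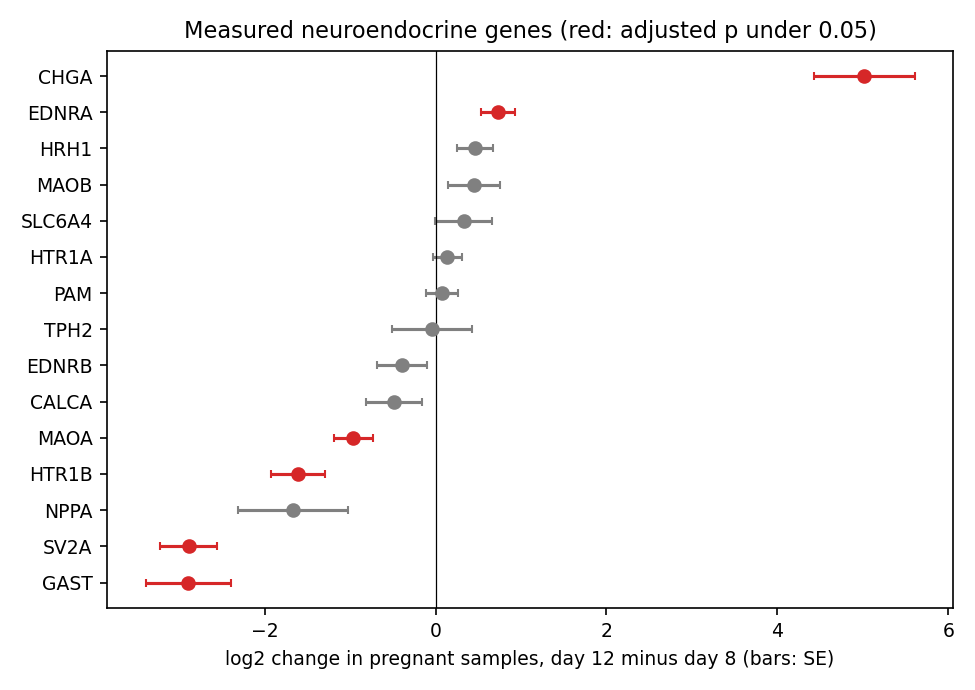
Day 12 minus day 8 change in pregnant samples (horizontal axis, log2, with SE bars) of the 15 tested genes of the 6 lists, GAST, SV2A and HTR1B included. Red points have a limma adjusted p under 0.05. GAST and SV2A lie lowest at -2.90 and -2.89, and CHGA lies highest at 5.02.

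Markers of cell types in which these genes are usually found were thin on the array. Of 13 neuron and nerve markers, 1 was tested: UCHL1, a neuronal deubiquitinase, was 2.19-fold higher at day 12 in pregnant samples (1.13 ± 0.37 log2, limma adjusted p = 0.0450), opposite in direction to the 3 genes. Its levels were -6.01 to -4.41 in pregnant and -5.24 to -4.53 in non-pregnant day 8 samples, and -4.77 to -2.90 and -5.45 to -3.48 at day 12. Of 6 endocrine markers CHGA alone was tested, with the values above.

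Among the other markers, PECAM1 of endothelium (0.92 ± 0.19, limma adjusted p = 0.00589) and CD14 of monocytes and macrophages (1.01 ± 0.15, limma adjusted p = 0.00183) were higher at day 12 in pregnant samples. So was TAGLN of smooth muscle (0.84 ± 0.28, limma adjusted p = 0.0462). LUM of stroma (-0.63 ± 0.20, limma adjusted p = 0.0418) and ITGA2B of platelets (-0.84 ± 0.14, limma adjusted p = 0.00283) were lower, and the epithelial ESRP1 gave -0.14 ± 0.16 (limma adjusted p = 0.546, with 0.06 under quantile normalisation). CD14 was the one called of 4 macrophage and dendritic cell markers tested. The others had the opposite sign and were not called: CD68 -0.23, ITGAX -0.61 and LAPTM5 -0.17. Their signs were not stable, with 0.29 for CD68 and 0.46 for ITGAX under normexp, and 0.04 for LAPTM5 under quantile normalisation. For each of T and NK lymphocytes, mast cells and embryo or trophoblast, 0 of 2 were called in limma. The smallest unadjusted p of these 6 genes was 0.321. No listed marker of uterine gland, B and plasma cells or neutrophils was on the array by symbol. UCHL1, TAGLN and LUM missed the threshold under quantile normalisation and with slide or scan day as a random block. All 6 called markers other than CHGA missed it in the authors' deposited table and under normexp with all arrays, where ITGA2B was -0.26. Under normexp without mare 1 at day 12, CD14, PECAM1, ITGA2B (-0.58) and LUM were called (limma adjusted p = 0.00287, 0.0118, 0.0280 and 0.0472). UCHL1 (0.56) and TAGLN (0.71) were not called there. Apart from CHGA, each called marker changed by less than any of the 3 genes, and their part in the result was not tested.

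The named genes whose levels moved most like each of the 3 genes were ranked by the correlation of deviations from the 4 group means over the 22 arrays, a measure that leaves out the day and pregnancy differences themselves. Points share arrays, scaling and, in pairs, a mare. For GAST the closest were LOC100066977 (r = 0.92), TMEM147, a membrane protein of the endoplasmic reticulum (0.87), and ECATH-3, an equine cathelicidin (0.86). For SV2A they were SLC16A3, a lactate transporter (0.92), RAVER1, an RNA-binding protein (0.86), and ACTB, cytoplasmic actin (0.86). For HTR1B they were the chemokine CCL11 (0.94), NR5A1, a regulator of steroidogenic genes (0.94), and the transcription factor subunit NFYC (0.94).

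Leaving out both day 8 arrays of mare 1 lowered the HTR1B correlations to 0.81, 0.85 and 0.83 and left that of GAST with LOC100066977 at 0.92. In pregnant samples, 7 of these 9 genes were also called lower at day 12, by -0.57 (LOC100066977) to -1.55 (NFYC), where 13.1% of all probes and 122 of the 607 named genes were. The exceptions were NR5A1, at 0.49 ± 0.25 (SE, limma adjusted p = 0.165), and ACTB, at -0.32 ± 0.16 (limma adjusted p = 0.168). Among themselves, GAST and HTR1B correlated at 0.79, SV2A and HTR1B at 0.72, and GAST and SV2A at 0.56. Without the day 8 arrays of mare 1 these were 0.84, 0.57 and 0.42. HTR1B ranked 13th of the named genes in likeness to GAST, and SV2A ranked 79th.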

How the data were processed

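RNA of endometrial biopsies was labelled with Cy3 and hybridised to 1-colour Agilent arrays, per the labels' protocols. The deposited scanner files hold spot intensities on a linear scale, background-subtracted and detrended with Agilent Feature Extraction (versions 10.5.1.1 and 10.7.3.1, per the file headers) without scaling from array to array. A deposited table of the authors' processed values was read as log2 from its values and served as an alternative. Its centring and normalisation stay unknown, and its column medians ran from 7.47 (day 8 pregnant, mare 1) to 8.83 (day 12 pregnant, mare 5).

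Intensities were taken as log2 minus the 75th percentile of the array's non-control spots. Non-uniform spots were dropped and spots of a probe averaged. Probes well above background on at least 5 of 22 arrays were tested with limma 3.58.1 in R 4.3.3 (lmFit, eBayes, two-sided), with Benjamini-Hochberg adjustment over all probes tested and a threshold of 0.05. The procedure was tested on simulated data. Days were compared over 11 pregnant or 11 non-pregnant arrays, and pregnancy over 22 arrays with mare within day as a block. That pairing comes from the labels. Deviations of same-mare arrays correlated at 0.29 to 0.82 within a day. Such arrays also shared a slide and scan day, so these correlations cannot tell mare from slide. A day compares different slides, so software and scan day go with it.

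Symbols came from a RefSeq gene table (horse assembly TB-T2T) through accessions, which named 1394 of 43603 probes. A gene other than the 3 stands by its brightest probe. Named besides the 3 were list genes called in a pregnant or pregnancy comparison, up to 4 others per list with the smallest p, markers, and the 3 closest genes by correlation. The 3 genes and the lists were chosen with earlier results of these data known. Of the lists, 2 genes are not reported here and are left out of the list counts. Alternatives were normexp (offset 50, on median spot signals, as the files hold no mean signals), quantile normalisation, the authors' table, other filters, a trended prior, blocks for slide, scan day or mare, and leaving out each mare. Leaving out mare 1 at day 12 under normexp was chosen after seeing the data.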

Additional observations from a re-analysis of the deposited data

Results flagged for a closer look

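In pregnant samples of day 8, GAST was 6.44 in mare 1 while the other 4 mares lay between 5.10 and 5.21, a gap of 0.917 of the group's range against a critical value of 0.710 for 5 samples. HTR1B in the same sample was -0.63, the others lying between -2.51 and -2.11, a gap of 0.786 of the range. Of 18 groups of values examined, these 2 passed the critical value, where chance passes about 1 in 20. Mare 1 was also the highest day 8 sample for SV2A, and for all 3 genes in the non-pregnant group, with smaller gaps relative to the range. Its 2 day 8 arrays had the lowest 75th percentiles of intensity of that day, 577 and 633 units, and their part in the values was not tested. In unscaled intensity, pregnant day 8 GAST was 55071 units in mare 1 and 54111 in mare 4. SV2A was 42680 and 54390 in these samples, and HTR1B 409 and 339. For GAST the authors' table gave 15.67 in mare 1 and 15.68 in mare 4. Under quantile normalisation mare 1 stayed highest, at 15.9 against 15.0 to 15.2. Without mare 1 at day 8 the pregnant day changes were -2.64 for GAST, -2.69 for SV2A and -1.29 for HTR1B (limma adjusted p = 0.00496, 0.000785 and 0.00217).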

How the results depend on the processing

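In pregnant samples, the day change of GAST was -3.18 to -2.61 and that of SV2A -3.13 to -2.59 over all alternatives, each called in limma. HTR1B was called in 21 of 22 alternatives (-1.76 to -1.16), and normexp gave -0.70, with the lost call described above. With the mare number as a replicate block the changes were -2.78, -2.71 and -1.54 (limma adjusted p = 0.0258, 0.0138 and 0.0448). The numbers were not taken to pair samples across days, since the labels do not say whether they do. Deviations of arrays with the same mare number correlated across days at 0.15 to 0.34 for mares 1, 4, 5 and 6. For mare 2 these correlations were -0.09 and -0.15. The pregnancy differences were called in no alternative, and the largest move was that of HTR1B at day 12 under normexp, to 0.60. With 1 mare left out they ran from -0.45 to 0.19 (GAST, 0.19 without mare 6) and -0.041 to 0.18 (HTR1B) at day 12 and from -0.15 to 0.068 (SV2A) at day 8, and the GAST difference between days from -0.060 to 0.58.

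Counts of probes called by limma moved more. For pregnant day changes (9334 in the main analysis) they were 388 under normexp, 4093 under normexp without mare 1 at day 12, 836 in the authors' table (441 higher, 395 lower, against 4280 and 5054), 5094 with the replicate block, 3434 with scan day as a random block, and 5868 to 10640 with 1 mare left out, lowest without mares 4 (6205) or 6 (5868) of day 8. For non-pregnant day changes (2732, of which 954 higher) they were 1620 under normexp, 662 without mare 1, 4459 under quantile normalisation, 282 in the authors' table (11 higher), 31 with the replicate block, 772 and 211 with slide and scan day as random blocks, 5243 in a fit of all arrays, and 650 to 3235 with 1 mare left out. For pregnancy at day 12 (102) they were 13 under normexp (all higher) and 48 under normexp without mare 1 at day 12. The authors' table gave 303, a filter on all 22 arrays 218 and a trended prior 287. With no replicate block there were 41, and with day 12 arrays alone 9. With 1 mare left out the counts were 31 to 977 (977 without mare 3). For the difference between days (4) they were 10 under normexp without mare 1, 0 under quantile normalisation, in the authors' table, with the filter on 22 arrays or with no replicate block, 2 without a filter or with slide as the block, 11 with a trended prior, and 1 to 33 with 1 mare left out. At day 8 no alternative called a probe for pregnancy. The cause of these moves was not tested. Under normexp the median pregnant day change of the tested probes was 0.39, and without mare 1 at day 12 it was 0.02. The pregnant day 12 array of mare 1 had a normexp median of -0.17, apart from every other array, as given above. The other annotation version and averaging over probes could change nothing, with 1 probe per gene. HTR1B was dim, at 44.4 to 621 units, though well above background on all 22 arrays.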
